A study of Mus musculus with 6 samples.

Results

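The genes described here are those of the proteasome, measured in LSK cells. This mouse bone marrow fraction lacks markers of mature lineages, carries the surface proteins Sca-1 and Kit, and contains the blood-forming stem cells. Members were all probe sets with 1 annotated gene symbol that begins with Psm, a letter from a to g and a digit, and each gene was represented by its probe set with the highest mean signal. This gave 48 genes with 85 probe sets, out of 12393 genes and 22626 probe sets on the array. The 48 genes comprised 8 alpha and 7 constitutive beta subunits of the 20S core, 3 immunoproteasome subunits, 6 ATPases and 14 other genes of the 19S regulator, 3 activators, the regulator Psmf1 and 4 assembly chaperones. The remaining 2 genes, Psmc3ip and Psme3ip1, encode proteins named for a proteasome partner and are not subunits. Psme2, the partner of Psme1 in the PA28 activator, had no probe set with 1 symbol and is not described.

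The groups were 3 single-colour arrays of LSK cells from Gfi1 knockout mice and 3 of LSK cells from wild-type mice, numbered 5, 7 and 8 in each, and signals below follow that order of numbers. Cells were sorted by flow cytometry, and cRNA was amplified in 2 rounds from 10 ng of total RNA. The labels used here give no strain, age or type of Gfi1 allele, and do not say whether a sample was 1 mouse or a pool, so the p-values rest on a spread between samples that may be technical only. Gfi1, a transcriptional repressor, did not have a lower signal in the knockout-labelled group: it read 692, 1163 and 1737 there, against 632, 608 and 723 on wild-type arrays. Whether its probe set lies in the deleted part is not given, so the group is called knockout-labelled and every direction rests on that label. The sorting marker Kit had mean signals of 4225 on knockout-labelled and 6899 on wild-type arrays. Of the 8 tested LSK surface markers, Kit included, 3 lay higher on the knockout-labelled arrays and 5 lower. Markers of other cell types are given after the results. In bulk RNA, fewer cells of a type and less RNA per cell cannot be told apart.

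The proteasome degrades proteins tagged with ubiquitin. Its 20S core is a barrel of stacked rings, with outer alpha subunits that gate the entrance and inner beta subunits, of which Psmb5, Psmb6 and Psmb7 carry the chymotrypsin-like, caspase-like and trypsin-like activities. The 19S regulator caps the core, recognises ubiquitin and unfolds substrates with a ring of ATPases. Under interferons, and constitutively in many blood cells, Psmb8, Psmb9 and Psmb10 take the places of Psmb5, Psmb6 and Psmb7 in newly built particles, called immunoproteasomes, which favour peptides for MHC class I. When proteasome activity falls short in mammalian cells, the factor Nfe2l1 raises transcription of proteasome genes together through antioxidant response elements.

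Promoters are shown for the members that passed the test with the sample number as a block (below) and had an entry in the RefSeq promoter table, and for Psmb9, the immunoproteasome gene whose difference lay below 0. Psmb7 also passed with the block. Each sequence runs 5′ to 3′ from 250 bases before to 50 bases after the annotated start in GRCm38.p6. Capitals mark TGANNNNGC, searched on both strands, where N is any base. This string is a loose form of the core of the antioxidant response element, so a match need not be such an element.
Psmb5 promoter, chr14:54617946-54618245, minus strand: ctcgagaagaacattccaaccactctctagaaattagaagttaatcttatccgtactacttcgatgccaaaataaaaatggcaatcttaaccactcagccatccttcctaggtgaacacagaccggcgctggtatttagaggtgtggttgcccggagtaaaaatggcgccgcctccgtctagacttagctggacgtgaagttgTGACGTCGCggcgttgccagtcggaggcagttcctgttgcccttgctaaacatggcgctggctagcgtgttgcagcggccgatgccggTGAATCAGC
Psmb6 promoter, chr11:70525107-70525406, plus strand: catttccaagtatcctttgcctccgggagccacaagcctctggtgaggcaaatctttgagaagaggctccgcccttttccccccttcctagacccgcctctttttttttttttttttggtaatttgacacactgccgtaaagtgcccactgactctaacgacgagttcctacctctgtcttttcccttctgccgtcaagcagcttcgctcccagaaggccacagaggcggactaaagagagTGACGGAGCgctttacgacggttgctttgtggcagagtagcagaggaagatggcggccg
Psmc5 promoter, chr11:106255935-106256234, plus strand: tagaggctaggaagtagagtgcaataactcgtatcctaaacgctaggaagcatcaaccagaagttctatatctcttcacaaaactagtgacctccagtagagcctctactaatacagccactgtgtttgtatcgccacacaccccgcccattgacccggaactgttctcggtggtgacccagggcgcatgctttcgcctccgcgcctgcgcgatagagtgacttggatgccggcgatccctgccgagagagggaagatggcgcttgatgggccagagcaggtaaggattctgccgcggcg
Psmd13 promoter, chr7:140882144-140882443, plus strand: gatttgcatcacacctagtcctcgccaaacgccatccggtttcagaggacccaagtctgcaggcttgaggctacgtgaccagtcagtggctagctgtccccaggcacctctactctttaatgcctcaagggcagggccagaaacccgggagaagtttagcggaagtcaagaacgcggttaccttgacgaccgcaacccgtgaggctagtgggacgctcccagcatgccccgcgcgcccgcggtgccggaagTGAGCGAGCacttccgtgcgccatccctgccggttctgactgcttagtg
Psmb9 promoter, chr17:34187281-34187580, minus strand: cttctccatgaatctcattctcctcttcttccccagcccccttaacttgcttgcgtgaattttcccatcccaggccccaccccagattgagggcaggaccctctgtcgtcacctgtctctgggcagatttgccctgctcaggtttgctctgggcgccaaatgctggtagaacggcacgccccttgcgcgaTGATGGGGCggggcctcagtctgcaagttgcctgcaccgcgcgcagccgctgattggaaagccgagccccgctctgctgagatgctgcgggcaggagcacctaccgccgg
The Psmb5 window held the motif at 2 places, those of Psmb6, Psmd13 and Psmb9 at 1 place each, and that of Psmc5 at 0. Of the 48 genes, 40 matched the table, with 43 promoters, and 24 of these (55.8%) held the motif, against 41.3% of all 32851 promoters of the same length. TTCNNNGAA, the GAS element of interferon gamma signalling, was in 3 of the 43 (6.98%, against 8.30% of all promoters). GAAANN directly followed by GAAA, the core of the interferon-stimulated response element, was in 5 (11.6%, against 3.44%). Those 5 were the promoters of Psmb3, Psmd4, Psmd9, Psme1 and Psmg4, none of them an immunoproteasome gene. The 3 with the GAS element were those of Psmb8, Psmd2 and Psmg1. The Psmb9 window shares 275 of its 300 bases with that of Tap1, a subunit of the transporter that loads MHC class I peptides, which is read from the opposite strand. A match describes letters in a window, and no binding was measured.

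Most proteasome genes lay a little higher on the knockout-labelled arrays, and none passed the threshold one by one. Each difference is the mean log2(signal + 16) of the knockout-labelled arrays minus that of the wild-type arrays, and SE is its standard error from limma. The median over the 48 genes was 0.37, a ratio of 1.29, against -0.01 over all 8239 tested genes. 43 of the 48 lay above 0, where 49.2% of all genes did. By limma, 0 of the 48 passed a Benjamini-Hochberg adjusted p of 0.05 in either direction, beside 1.42% of all genes called higher and 2.48% called lower. The smallest adjusted p was 0.0551 (Psmd13). An unadjusted p of 0.05 was reached by 23 members upward and 1 downward, beside 9.41% and 11.2% of all genes. All 3 knockout-labelled arrays exceeded all 3 wild-type arrays for 24 members, and lay below them for 1 (Psmg4), where the shares of all genes were 12.4% and 13.1%. All 48 genes were bright enough to be tested.

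**Figure D1:**
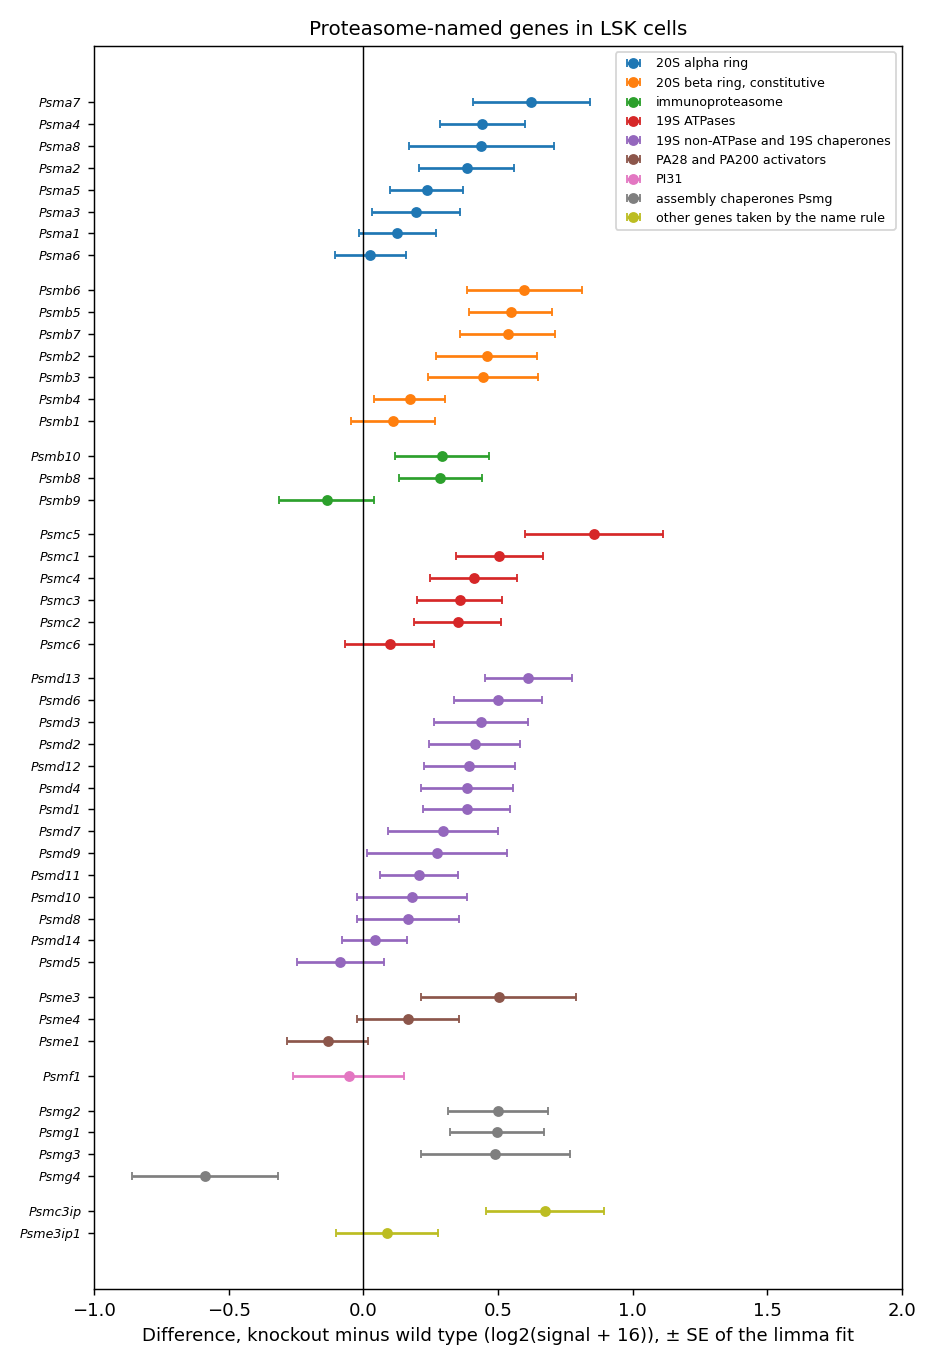
Difference between knockout-labelled and wild-type arrays (log2(signal + 16), points) with the SE of the limma fit (bars) for each of the 48 genes, sorted within its class. 43 of the 48 points lie right of 0, from 0.03 (Psma6) to 0.86 (Psmc5), and 5 lie left of it, the lowest being Psmg4 at -0.59.

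**Figure D2:**
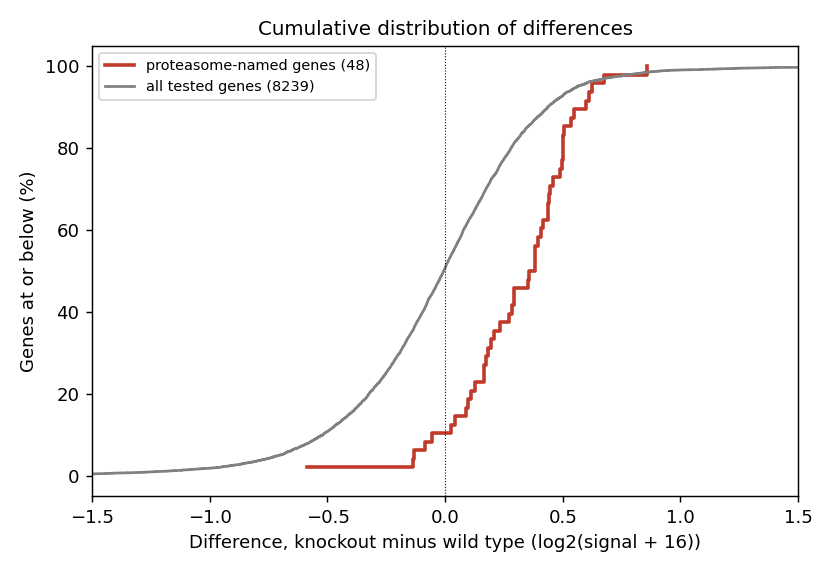
Cumulative share of genes (%) against the difference between knockout-labelled and wild-type arrays (log2(signal + 16)) for the 48 proteasome genes and all 8239 tested genes, drawn from -1.5 to 1.5. The curve of the proteasome genes crosses its midpoint at 0.37 and that of all genes at -0.01.

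With the sample number as a block, 5 of the 48 genes passed, all higher (10.4%, beside 2.34% of all genes called higher and 4.02% called lower in that fit). They were the catalytic subunits Psmb5, Psmb6 and Psmb7, the ATPase Psmc5 and the 19S subunit Psmd13. A pair here means the knockout-labelled and wild-type arrays of the same number, and the labels do not say what the number stands for. The shift was present in each numbered pair of arrays. The knockout-labelled array of the pair was the higher one for 40 of the 48 genes in pair 5, 43 in pair 7 and 44 in pair 8. The shares of all genes were 50.2%, 52.8% and 45.2%. Median differences of the members were 0.23, 0.36 and 0.34, against 0.002, 0.031 and -0.053 over all genes. In all pairs at once the knockout-labelled array was the higher one for 37 members (77.1%, beside 22.4% of all genes), and in no pair for 1 member, Psmg4 (beside 23.2% of all genes).

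One wild-type array weighed most on the size of the shift. Wild-type array 7 held the lowest of the 6 signals for 26 of the 48 genes (54.2%, beside 19.3% of all genes), and knockout-labelled array 8 held the highest for 18 (37.5%, beside 13.5%). The median over members of the log2 value, each gene set to 0 at its mean over the arrays, was 0.16, 0.11 and 0.16 on knockout-labelled arrays 5, 7 and 8, against -0.07, -0.26 and -0.10 on wild-type arrays 5, 7 and 8. The groups did not overlap on this measure, while the same median over all genes stayed between -0.05 and 0.03. Without wild-type array 7 the median difference was 0.30 and 42 genes lay above 0. Without wild-type array 8, 2 genes passed, Psmc5 and Psmd13 (4.17%, beside 1.89% of all genes called higher in that fit), and without any 1 of the other 5 arrays 0 passed by limma. The members that reached an unadjusted p of 0.05 upward numbered 11 without knockout-labelled array 8 (beside 6.41% of all genes) or wild-type array 7 (6.69%), and 14 without knockout-labelled array 5 (8.02%) or 7 (7.14%). They numbered 15 without wild-type array 8 (9.81%) and 21 without wild-type array 5 (8.93%).

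**Figure D3:**
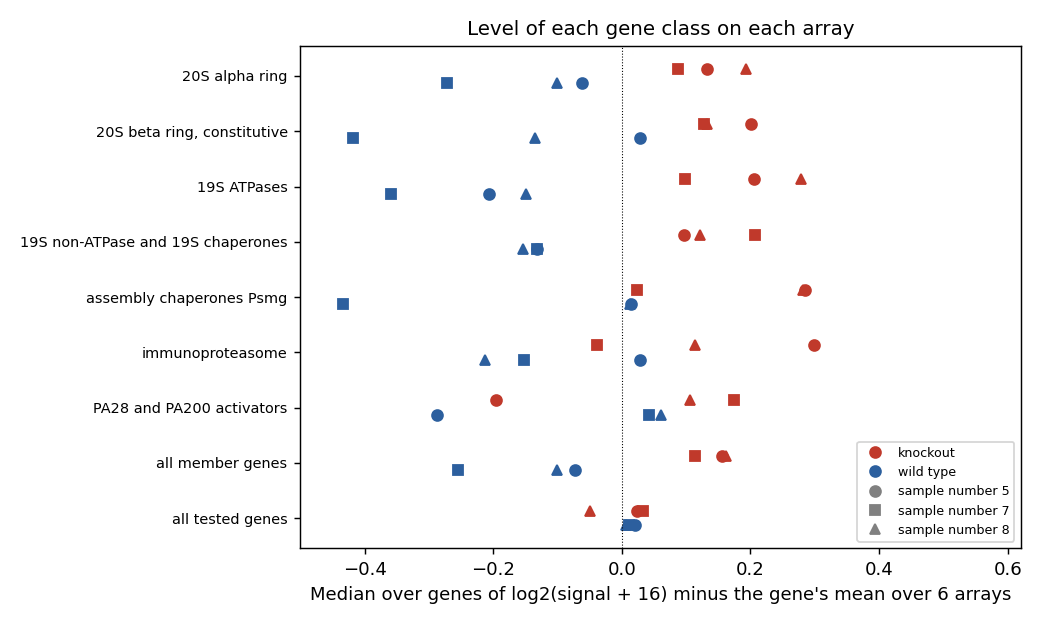
Level of each gene class on each array, as the median over genes of the log2(signal + 16) value minus the gene's mean over the 6 arrays. Red points are knockout-labelled and blue points wild-type arrays, with shapes for the sample number. The groups do not overlap for the alpha, constitutive beta, both 19S and the Psmg classes, and wild-type array 7 is the lowest array for each of these except the 19S non-ATPase genes.

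The alpha subunits, which form the outer rings and gate of the core, all lay above 0, from 0.03 ± 0.13 for Psma6 to 0.62 ± 0.22 (SE) for Psma7, with a median of 0.31 over 8 genes. Psma7 had signals of 2372, 2565 and 3487 on knockout-labelled arrays, against 2071, 1329 and 2085 on wild-type arrays, and its groups did not overlap (limma adjusted p = 0.133). Psma4 stood at 0.44 ± 0.16 and likewise did not overlap. Psma8, a variant of Psma7 known from testis, was dim, with means of 315 ± 53.8 on knockout-labelled and 228 ± 27.6 on wild-type arrays (SD, n = 3 each). The class median was 0.18 without wild-type array 7 and 0.41 without the less specific probe sets.

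Among the constitutive beta subunits, the 3 that cut peptide bonds had the largest differences of the 7 by their brightest probe sets with all arrays, an order that depended on both choices. Psmb5, the target of the drug bortezomib, had signals of 6536, 6208 and 5998 on knockout-labelled arrays, against 4798, 3828 and 4239 on wild-type arrays. Psmb6 had 4611, 3235 and 3247 on knockout-labelled arrays, against 3199, 1968 and 2206 on wild-type arrays. Psmb7 had 9162, 9010.3 and 11295 on knockout-labelled arrays, against 7519, 5223 and 7774 on wild-type arrays. The groups did not overlap for any of these 3 genes. The difference of Psmb5 was 0.55 ± 0.15 (SE), a ratio of 1.46 (limma adjusted p = 0.0694, and 0.0437 with the block, the lowest of a range up to 0.226 over its alternatives). Psmb6 stood at 0.60 ± 0.21 (limma adjusted p = 0.137, and 0.0445 with the block, range up to 0.397). Psmb7 stood at 0.54 ± 0.18 (limma adjusted p = 0.115, and 0.0464 with the block, range up to 0.364). The structural subunits Psmb2 and Psmb3 stood at 0.46 ± 0.19 and 0.44 ± 0.21, without overlap. The dimmer probe set of Psmb3 stood at 0.75 ± 0.25, also without overlap (limma adjusted p = 0.11), and without knockout-labelled array 5 Psmb2 stood at 0.64 and Psmb6 at 0.43. Psmb4 and Psmb1 stood at 0.17 ± 0.13 and 0.11 ± 0.16 with overlap. The median of the class was 0.46.

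The immunoproteasome subunits, set apart because interferons induce them, did not pass with or without the block, and their groups overlapped except for Psmb10. Psmb8, the counterpart of Psmb5, had signals of 13495, 10283 and 11437 on knockout-labelled arrays, against 10774, 9502 and 8544 on wild-type arrays, a difference of 0.29 ± 0.15 (limma adjusted p = 0.334). Psmb10, the counterpart of Psmb7, had 2265, 1871 and 1989 on knockout-labelled arrays, against 1764, 1635 and 1584 on wild-type arrays, a difference of 0.29 ± 0.17 (limma adjusted p = 0.385). Psmb9, the counterpart of Psmb6, had 2914, 2206 and 3017 on knockout-labelled arrays, against 3098, 2931 and 2845 on wild-type arrays, a difference of -0.14 ± 0.18 (limma adjusted p = 0.733). Psmb9 was thus low on knockout-labelled array 7 alone, and without that array its difference was 0.0043.

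**Figure D4:**
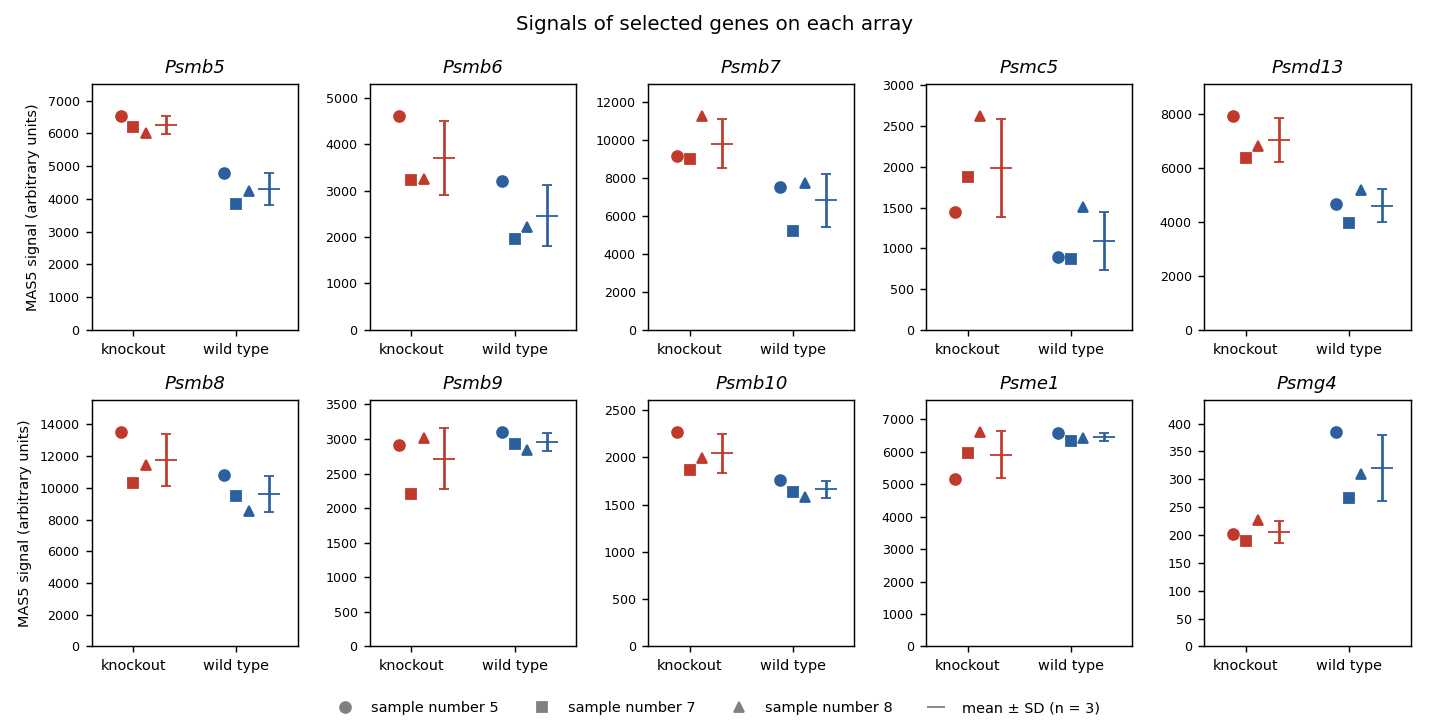
MAS5 signals (arbitrary units, axes from 0) of 10 genes on each array, with shapes for the sample number and a bar for mean ± SD (n = 3), knockout-labelled arrays in red and wild-type arrays in blue. For Psmb5, Psmb6, Psmb7, Psmd13 and Psmb10 all knockout-labelled points lie above all wild-type points, for Psmg4 all lie below, and for Psmc5, Psmb8, Psmb9 and Psme1 the groups overlap.

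The difference of each immunoproteasome subunit lay below that of the subunit it replaces. The log2 ratio of Psmb9 to Psmb6 within an array differed between the groups by -0.73 ± 0.25 (SE), with every knockout-labelled array below every wild-type array. For this ratio and those below, the SE came from the variances within the groups and not from limma. The ratio of Psmb8 to Psmb5 differed by -0.26 ± 0.13 and that of Psmb10 to Psmb7 by -0.24 ± 0.23, both with overlap. Within the numbers 5, 7 and 8, the ratio of Psmb9 to Psmb6 differed by -0.61, -1.12 and -0.47 and that of Psmb8 to Psmb5 by -0.12, -0.58 and -0.08, so both were lower in every pair. The ratio of Psmb10 to Psmb7 differed by 0.07, -0.59 and -0.21. The two-sided exact permutation p-values, which take the groups as unpaired, were 0.1 for Psmb9 to Psmb6, 0.2 for Psmb8 to Psmb5 and 0.5 for Psmb10 to Psmb7 (0.3, 0.3 and 0.5 after Benjamini-Hochberg adjustment), and 0.1 is the smallest that 3 against 3 arrays allow.

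The 19S regulator lay higher like the core. Its ATPases, which unfold substrates, all lay above 0 with a median of 0.38 over 6 genes. Psmc5 had the largest difference of all members, 0.86 ± 0.26, a ratio of 1.81, with signals of 1442, 1881 and 2628 on knockout-labelled arrays, against 894, 874 and 1505 on wild-type arrays. Knockout-labelled array 5 lay below wild-type array 8, so its groups overlapped, while within each number the knockout-labelled array was higher by 0.68, 1.09 and 0.80. The limma adjusted p of Psmc5 was 0.0868, and 0.0229 with the block, the lowest of a range up to 0.315 over its alternatives (0.0259, at a difference of 1.11, without wild-type array 8). Psmc1 stood at 0.51 ± 0.16 with signals of 4034, 4043 and 4182 on knockout-labelled arrays, against 2867, 2564 and 3229 on wild-type arrays. Those 3 knockout-labelled values lay close together and above all wild-type values (limma adjusted p = 0.102), though the mean over all probe sets of Psmc1, dim ones included, was -0.38.

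The other 19S genes, which bind ubiquitin, scaffold the lid and base, or help assembly, had a median of 0.34 over 14, of which 13 lay above 0 and 8 did not overlap. Of all genes, 49.2% lay above 0 and 12.4% had every knockout-labelled array above every wild-type array. Psmd13, a scaffold subunit of the lid, had signals of 7942, 6389 and 6802 on knockout-labelled arrays, against 4682, 3972 and 5177 on wild-type arrays. All knockout-labelled arrays were the higher ones, by 0.61 ± 0.16, a ratio of 1.53 (limma adjusted p = 0.0551, and 0.0323 with the block, the lowest of a range up to 0.206). Without wild-type array 8 the difference of Psmd13 was 0.70 (limma adjusted p = 0.0464), and its dimmer probe set stood at 0.49. Psmd6, another lid subunit, stood at 0.50 ± 0.16, the base scaffolds Psmd1 and Psmd2 at 0.38 ± 0.16 and 0.41 ± 0.17, and the ubiquitin receptor Psmd4 at 0.38 ± 0.17, each without overlap. Psmd14, the lid enzyme that removes ubiquitin chains, stood at 0.04 ± 0.12, with means of 22992 ± 1026 on knockout-labelled and 22333 ± 806 on wild-type arrays (SD, n = 3 each). Psmd5, Psmd9 and Psmd10, chaperones that help build the base and leave it, stood at -0.09 ± 0.16, 0.27 ± 0.26 and 0.18 ± 0.20, all with overlap.

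Alternative activators and the regulator PI31 showed smaller or less certain differences. Psme1, the interferon-inducible alpha subunit of the PA28 activator, had signals of 5151, 5965 and 6597 on knockout-labelled arrays, against 6577, 6335 and 6419 on wild-type arrays, with overlap, and stood at -0.13 ± 0.15 (limma adjusted p = 0.694). Psme3, the nuclear PA28 gamma, stood at 0.50 ± 0.29 and Psme4, which encodes PA200, at 0.16 ± 0.19. Psmf1, which encodes PI31, stood at -0.05 ± 0.21 by its brightest probe set. The dimmer probe sets of Psmf1 stood at -0.46 ± 0.25 and -0.51 ± 0.25, the lower of these without overlap, and none passed.

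Of the 4 chaperones that assemble the 20S core, 3 lay higher and 1 lower. Psmg1 had signals of 2949, 2334 and 2868 on knockout-labelled arrays, against 2044, 1752 and 1944 on wild-type arrays, and its partner Psmg2 had 2992, 2858 and 3501 on knockout-labelled arrays, against 2104, 1847 and 2708 on wild-type arrays. These genes, whose proteins act as a pair on alpha ring assembly, stood at 0.50 ± 0.17 and 0.50 ± 0.19 without overlap (limma adjusted p = 0.133 and 0.156). Psmg3 stood at 0.49 ± 0.28 with overlap, while Psmg4, whose protein pairs with that of Psmg3, had 201, 189 and 228 on knockout-labelled arrays, against 384, 266 and 310 on wild-type arrays. Psmg4 was the dimmest of the 48 genes and the only member with every knockout-labelled array below every wild-type array, at -0.59 ± 0.27 (limma adjusted p = 0.251). Of the genes that only share the name, Psmc3ip, a cofactor of homologous recombination in meiosis, stood at 0.67 ± 0.22 without overlap (limma adjusted p = 0.107), and Psme3ip1 at 0.09 ± 0.19.

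Probe sets of the same gene mostly had the same sign. Of 19 genes with at least 2 tested probe sets, 14 had differences of 1 sign and 5 of both signs, namely Psma1, Psma6, Psmb1, Psmd11 and Psme4. In Psma1 the bright probe set stood at 0.13 and a dim one at -0.68, and in Psme4 the probe sets ran from -0.17 to 0.16. Of all 85 probe sets 73 were bright enough to be tested, and 60 of these lay above 0, where 48.9% of all tested probe sets did. The shift was present at every level of signal. The 16 brightest members had a median difference of 0.26, the 16 in the middle 0.42 and the 16 dimmest 0.34, where all tested genes in the same ranges of signal had medians of 0.02, 0.02 and -0.02. Of the 7 members with a mean signal above 10000, 5 differed by less than 0.25.

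Genes that work with the proteasome under other names lay on both sides of 0. Of 9 partners and assembly factors, 3 lay above 0, 0 were called higher and 1 was called lower by limma, with a median of -0.03. The called gene was Zfand5, an activator that binds the 26S particle, at 10356 ± 463 on knockout-labelled and 15293 ± 2025 on wild-type arrays (SD, n = 3 each), a difference of -0.55 ± 0.14 (limma adjusted p = 0.0495, range 0.0237 to 0.535). Pomp, the maturation factor of the core, Sem1, a small lid subunit, and Uchl5, a ubiquitin hydrolase of the base, stood at 0.31 ± 0.16, 0.32 ± 0.18 and 0.34 ± 0.15, each without overlap. Usp14, another ubiquitin hydrolase, stood at -0.03 ± 0.17. Among 9 regulators of proteasome genes 1 was called lower, the small Maf factor Maff, with signals of 75.5, 283 and 127 on knockout-labelled arrays, against 489, 783 and 334 on wild-type arrays (-1.72 ± 0.41, limma adjusted p = 0.0359, range 0.0101 to 0.193). On knockout-labelled arrays 5 and 8 Maff lay below the lowest mean signal tested (198), so its place among the tested genes rested largely on the wild-type arrays. On knockout-labelled array 5 it also lay below the brightest Bacillus control of that array (154). Without the brightness filter Maff did not pass (limma adjusted p = 0.12). Nfe2l1 and its relative Nfe2l2, an oxidative stress factor, stood at 0.10 ± 0.21 and 0.02 ± 0.18. Zfand5 passed only without wild-type array 8 when 1 array was left out, and Maff only without knockout-labelled array 7 or wild-type array 8.

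Ubiquitin-system genes had medians near 0, while that of cytosolic chaperones lay higher. By limma 0 of 10 tested genes for E1 enzymes and ubiquitin shuttle factors passed (2 and 1 reached an unadjusted p of 0.05 upward and downward, median 0.09), with Rad23b, a shuttle that brings ubiquitin chains to the proteasome, at 0.49 ± 0.16. Likewise 0 of 25 conjugating E2 enzymes passed (1 and 2 reached an unadjusted p of 0.05 upward and downward, median 0.01), and 13 lay above 0. At an unadjusted p under 0.05, 7 of 25 cytosolic chaperones were higher and 2 lower, beside 9.41% and 11.2% of all genes. Of these 25 chaperones 18 lay above 0, with a median of 0.20. 1 of them, Hspe1, the mitochondrial co-chaperonin listed with them, was called higher at 0.72 ± 0.17 (limma adjusted p = 0.0312, range 0.0166 to 0.244), and of the fits that left out 1 array it passed only in that without wild-type array 8.

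Genes of MHC class I presentation and of interferon signalling, which interferons induce along with the immunoproteasome, had medians of -0.05 and -0.31. Of 11 tested presentation genes 1 was called higher, Calr, an ER chaperone, at 0.86 ± 0.15 (limma adjusted p = 0.00673, and 0.0582 without knockout-labelled array 8). Tap1, which shares its promoter window with Psmb9, had signals of 2054, 1747 and 1799.7 on knockout-labelled arrays, against 2545, 2362 and 2361 on wild-type arrays. All knockout-labelled values of Tap1 were the lower ones, at -0.38 ± 0.17 (limma adjusted p = 0.235). B2m, the light chain of class I, and H2-D1, a heavy chain, stood at -0.37 ± 0.15 and -0.32 ± 0.13, also without overlap and without passing. Of the 11 genes 5 lay above 0 and 6 below, and 2 reached an unadjusted p of 0.05 upward and 3 downward, beside 9.41% and 11.2% of all genes. The upward pair was Calr and Pdia3, a partner of Calr in the ER that stood at 0.56 ± 0.24 with overlap. Of 8 inducers of immunoproteasome genes 1 was called lower, Irf9, the DNA-binding part of the type I interferon factor, at -0.77 ± 0.19 (limma adjusted p = 0.0393, range 0.0215 to 0.133), a call lost with any 1 array left out. Of these 8 genes 3 lay above 0 and 5 below. At an unadjusted p under 0.05, 0 of them were higher and 4 lower, beside the same shares of all genes. Irf1, which drives Psmb9 and Tap1 under interferon gamma, had 2215, 1792 and 1513 on knockout-labelled arrays, against 2444, 2718 and 3322 on wild-type arrays, at -0.62 ± 0.20 (limma adjusted p = 0.0989).

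Markers of several cell types differed between the same arrays. Over all genes, 1.42% were called higher and 2.48% lower by limma (2.34% and 4.02% with the block). Of 9 tested neutrophil markers 5 were called lower and 1 higher (7 and 1 with the block), and the summed signal of the list was 7402 to 14762 on knockout-labelled and 20747 to 42031 on wild-type arrays. Of 10 tested monocyte and macrophage markers 3 were called higher and 0 lower, with sums of 14158 to 18516 on knockout-labelled and 8411 to 11463 on wild-type arrays. Of 8 LSK surface markers 2 were called lower and 0 higher (3 and 1 with the block), with sums of 45144 to 48331 on knockout-labelled and 50389 to 63518 on wild-type arrays. The groups did not overlap for any of these sums.

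The dendritic and erythroid sums were likewise separate. Of 7 tested dendritic cell markers 1 was called lower, Flt3, which is also an LSK marker, with sums of 6301 to 8436 on knockout-labelled and 9898 to 13183 on wild-type arrays. Of 7 tested erythroid markers 0 passed by limma and 3 were lower at an unadjusted p under 0.05, with sums of 4933 to 5841 on knockout-labelled and 6369 to 16679 on wild-type arrays.

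The lymphoid sums overlapped between the groups. For T and NK cells they were 4975 to 5709 on knockout-labelled and 4478 to 5373 on wild-type arrays, and of 3 tested markers Klrd1 was called lower. Nkg7, a granule protein of NK and T cells, had means of 2460 on knockout-labelled and 1741 on wild-type arrays, while Cd4, a T cell co-receptor, did not exceed the brightest Bacillus control on any array. For B and plasma cells the sums were 15071 to 25972 on knockout-labelled and 15357 to 24376 on wild-type arrays, and of 7 tested markers 0 passed by limma (1 lower at an unadjusted p under 0.05, and 1 with the block). Most of that sum was Jchain, the joining chain of antibodies, with means of 16595 on knockout-labelled and 16171 on wild-type arrays, while Pax5, a B cell factor, did not exceed that control on any array. The megakaryocyte and stromal sums overlapped, with 0 markers called by limma (1 higher and 0 lower for megakaryocytes, and 0 higher and 1 lower for stroma, at an unadjusted p under 0.05). The part of these cell types in the shift of the proteasome genes was not tested.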

How the data were processed

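The data were the authors' deposited intensity values, 1 linear MAS5 signal per probe set and array, per the submitters' processing notes. The sources used here do not give the version and settings of MAS5. The deposited columns were already scaled, with means after trimming 2% from each end of 1000.33 to 1000.37, and the median signal of an array was 286 to 335. Of 22690 probe sets, 64 AFFX controls were left out, and genes were named where the platform annotation gave 1 symbol (20380 probe sets; 691 had several and 1555 none).

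From these, log2(signal + 16) was computed without further normalization, which understates changes of dim probe sets. Probe sets in the upper 60% by mean log2 value (13575) were tested with limma 3.58.1 in R 4.3.3 (lmFit, eBayes with trend, two-sided) over all 6 arrays, with Benjamini-Hochberg adjustment over those probe sets and a threshold of 0.05. Genes were counted by their brightest probe set. After subtracting group means, arrays of the same number correlated across probe sets at 0.159 (5), 0.168 (7) and 0.238 (8), so the number was also fitted as a block. Arrays of different numbers correlated below 0. Subtracting group means makes these values negative on average once those of the same number are positive, so their sign is no further evidence of pairing. Alternatives were other normalizations, pseudocounts, filters and probe set rules, eBayes without trend, and leaving out each array. Precision is limited by the number of arrays.

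The members and gene lists were chosen with earlier results of these data known. Values on every array are given for the catalytic beta and immunoproteasome subunits, Psme1 and the members with the smallest p in each direction. They are also given for Psma7, Psmc1, Psmg1 and Psmg2 as examples. These had some of the largest upward differences of their classes in these same data, so they do not stand for the other members. Other members are given by ranges and counts, with examples. Promoter sequences are RefSeq's, in GRCm38.p6. Fold changes and ratios were computed here from the deposited values.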

Additional observations from a re-analysis of the deposited data

How the results depend on the processing

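There were 17 alternatives and 1 chosen after seeing the data (leaving out Psmc3ip and Psme3ip1). Over these, 311 of 340 values for counts, medians and the immunoproteasome genes were scored as kept. A count was kept if it changed by no more than a fixed factor, and a median if it moved by less than the SD between arrays of a group. A gene was kept by its sign and call alone, whatever its size, so Psmb8 was kept at 0.18 to 0.38. The number of genes above 0 ran from 42 to 44 with 1 array left out, and that of genes called lower was 0 in every alternative. The number called higher was 5 with the replicate block, 1 (Psmd13, 2.27%, beside 1.90% of all genes) with the brightest 40% of probe sets, 1 (Psmb5, 2.13%, beside 1.78%) with the mean over all probe sets of a gene, and 0 to 2 with 1 array left out. At an unadjusted p under 0.05, 14 were higher with eBayes without trend (beside 8.05% of all genes). With 1 array left out, where fits have fewer arrays, 11 to 21 were higher (beside 6.41% to 9.81% of all genes). The median over all members was 0.29 with the mean over all probe sets and 0.30 to 0.39 with 1 array left out. That of the constitutive core was 0.34 to 0.50 with 1 array left out. That of the 19S regulator was 0.43, 0.34 and 0.34 with median centring, with quantile normalization and with cyclic loess and 0.33 to 0.39 with 1 array left out. For the non-ATPase genes it was 0.40 with median centring, 0.38 with the brightest 40%, 0.38 with the mean over probe sets and 0.29 without less specific probe sets. For the alpha subunits it was 0.41 without less specific probe sets and 0.18 to 0.38 with 1 array left out, for the Psmg chaperones 0.27 (without wild-type array 7, against 0.49 with all arrays) to 0.58, for the immunoproteasome 0.078 without less specific probe sets, and for the activators -0.034 with the mean over probe sets. The cause was not tested. Signs turned with the mean over all probe sets, which gives dim probe sets equal weight, for Psma1 (-0.55), Psma6 (-0.27), Psmc1 (-0.38) and Psme4 (-0.034). They also turned for Psma6 with cyclic loess (-0.0022), Psmf1 with median centring (0.0026) and Psmb1 without less specific probe sets (-0.38). With 1 array left out, Psma6 ran from -0.052 (without wild-type array 7) to 0.11, Psmb9 from -0.22 to 0.0043 (without knockout-labelled array 7), Psmc6 from -0.040 (without wild-type array 8) to 0.21 and Psmd5 from -0.17 to 0.0034 (without wild-type array 8). Psmf1 ran from -0.12 to 0.032 and Psme3ip1 from -0.031 to 0.22, both turning without knockout-labelled array 8. The replicate block changed no call of a member other than the 5 named.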
